A study of Mus musculus with 28 samples.

Results

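Heat-shock chaperones were followed through the transcripts of mouse yolk-sac macrophages and microglia, from the embryonic day labelled E10.5 to adulthood. The set held 10 genes of the 10630 genes tested, chosen by symbol. The first 6 (Hspa1a, Hspa1b, Hspb1, Dnajb1, Hsph1 and Hsp90aa1) are known as genes that heat and other protein damage raise, and are called inducible here. The other 4 (Hspa8, Hspa5, Hspd1 and Hspe1) are made in unstressed cells and are called constitutive. All 10 members were measured, through 17 of their 19 probes, and 5 members had more than 1 kept probe.

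All samples came from mice of the strain labelled C56BL/6, with no treatment or mutation named. The signal columns of microglia were named WT (wild type), and those of yolk-sac macrophages were not. The 8 groups were yolk-sac macrophages at E10.5 (YSM, 4 arrays) and, with 3 distinct arrays each, microglia of the brain at 5 embryonic stages from E10.5 up to E18.5, each 2 days after the last, in newborns (P0) and in adults (Adult, at 2 months). By the methods of the study, cells of several animals of either sex made up a sample and were sorted as CD45low, CD11b+, F4/80+, CD64+ and Ly6C-. Tissue was minced and digested with collagenase before sorting, for longer in newborns and adults than in embryos, and adult suspensions alone passed a density gradient, so age and preparation cannot be told apart in comparisons with P0 or the adult. Of 28 columns 3 adult ones were identical to another and were counted once, and the number of an array within its group is only a name.

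Chaperones bind unfolded or misfolded proteins and help them fold, travel or be degraded. In the heat-shock response, heat-shock factor 1 (HSF1) is released when unfolded proteins draw chaperones away from it, forms trimers and binds heat-shock elements, which are repeats of the unit GAA and its complement TTC, in front of chaperone genes. Folding in the endoplasmic reticulum (ER) is watched by a separate response, which acts on ER stress elements in front of genes such as Hspa5. In macrophages and microglia, inducible chaperones are also known to rise when tissue is dissociated, as immediate early genes do.

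The promoters of 8 members were in the RefSeq table used here (GRCm38.p6), as 11 windows from 250 bases before to 50 bases after a start. Hspa8 and Hsp90aa1 had no entry. The stretches below are those of the 3 inducible members that moved most between stages, and of Hspa5 for its ER stress element. Each covers the 120 bases before the start. Capitals mark 2 adjoining heat-shock units (GAANNTTC or TTCNNGAA) in the first 3 and an ER stress element (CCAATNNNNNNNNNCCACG, searched on both strands) in Hspa5.
Hspa1a, chr17:34972157-34972276, minus strand: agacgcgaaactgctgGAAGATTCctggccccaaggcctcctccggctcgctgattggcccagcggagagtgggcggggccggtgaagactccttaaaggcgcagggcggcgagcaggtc
Hspa1b, chr17:34959239-34959358, minus strand: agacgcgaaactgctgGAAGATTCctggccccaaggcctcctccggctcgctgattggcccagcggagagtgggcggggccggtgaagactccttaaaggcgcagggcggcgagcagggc
Hspb1, chr5:135887799-135887918, plus strand: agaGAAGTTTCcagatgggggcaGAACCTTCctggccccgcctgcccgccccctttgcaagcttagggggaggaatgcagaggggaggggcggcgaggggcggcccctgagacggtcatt
Hspa5, chr2:34771970-34772089, plus strand: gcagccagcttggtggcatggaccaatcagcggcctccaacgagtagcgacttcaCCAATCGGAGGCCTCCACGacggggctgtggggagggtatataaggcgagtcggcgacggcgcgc

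The stretches of Hspa1a and Hspa1b differed at 1 of 120 bases. These paralogues lie 10120 bases apart on chromosome 17 and encode nearly the same protein, and without probe sequences it could not be told whether a probe of one also bound the other, so the values of the pair are uncertain as values of single genes. The mitochondrial chaperonin genes Hspd1 and Hspe1 lie head to head on chromosome 1, on opposite strands, with annotated spans that overlap. A run of alternating TTC and GAA units over 18 bases lay between the start of Hspe1 and one of the 2 starts listed for Hspd1, which are 216 and 95 bases from it, and is printed in capitals.
Hspe1, chr1:55088053-55088082, plus strand: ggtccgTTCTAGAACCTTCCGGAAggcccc

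The pair of units (GAANNTTC or TTCNNGAA, which also lies within every longer run) was found in 6 of the 8 members (Hspa1a, Hspa1b, Hspb1, Hsph1, Hspd1 and Hspe1), and 15.1% of all 32851 promoter windows of the same length held it. Runs of 3 units (GAANNTTCNNGAA or TTCNNGAANNTTC) were found in 3 members (Hsph1, Hspd1 and Hspe1), against 0.603% of all windows. In Hsph1 the run lay after the start in each window, so no inducible member searched had a run of 3 units before a start. Of the 8 members, the ER stress element was found in Hspa5, against 0.119% of all windows. A member was counted if any of its windows held the letters (8 members have 11 windows), while the shares are over single windows. Hspd1 and Hspe1 hold the same run, and the stretches of Hspa1a and Hspa1b are nearly identical, so these members are not separate cases. The pair of units was therefore present in front of constitutive as well as inducible members, and these matches describe letters, not binding.

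Each level below is the log2 of the background-corrected and quantile-normalized signal of a gene's probe with the highest mean, and each difference is a log2 difference of group means with the standard error (SE) of a linear model over all 25 arrays (limma). Adjusted p is the Benjamini-Hochberg value over all genes tested, and rose or fell is used where it was under 0.05. Arrays held 13224 to 17937 detected probes (detection p under 0.01). Signal over background at the 75th percentile was 2.52 to 3.34 on the arrays of E16.5, E18.5 and P0 and 1.39 to 2.39 on all others, so brightness changed together with the steps from E14.5 and to the adult. The markers fixed for macrophages and microglia were detected on every array in 9 or 10 of 10 measured genes. The mean over 6 erythroid markers was 8.31 or more up to E14.5 and lower on every later array, and Hba-a1, a haemoglobin gene, averaged 13.83 at P0 and 15.94 in the adult, where Hbb-bh1, Hba-x and Hbb-y were not detected. Markers of neutrophils and monocytes averaged 9.19 or more on YSM and E10.5 arrays and 4.78 to 5.76 on later ones, except on E12.5 array 1 (8.73) and E14.5 array 1 (8.85). The mean over 7 neural markers was 8.35 to 9.87 on the arrays of E14.5 to P0 and 5.43 to 5.53 on adult arrays. That over 7 markers of endothelium and endoderm was 6.26 to 9.97 on YSM arrays and 5.43 to 7.28 on E10.5 arrays. Of 4 measured glial markers, 2 rose and 2 fell from P0 to the adult.

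All 10 members differed between stages by the moderated F test, as did 91% of all genes tested. Adjusted p ranged from 9.68e-09 for Hspe1 to 0.0203 for Hspa8. The span of the group means separated the members, at 5.12, 5.40 and 5.93 for Hspa1a, Hspa1b and Hspb1, 3.04 for Hsph1, between 1.39 and 2.29 for Dnajb1, Hsp90aa1, Hspa5, Hspd1 and Hspe1, and 0.47 for Hspa8. In the inducible trio Hspa1a, Hspa1b and Hspb1, the E16.5 and adult arrays stood above those of all other microglial stages, whereas Hspd1, Hspe1, Hspa5 and Hsph1 started high in YSM and were lower at later stages.

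**Figure D1:**
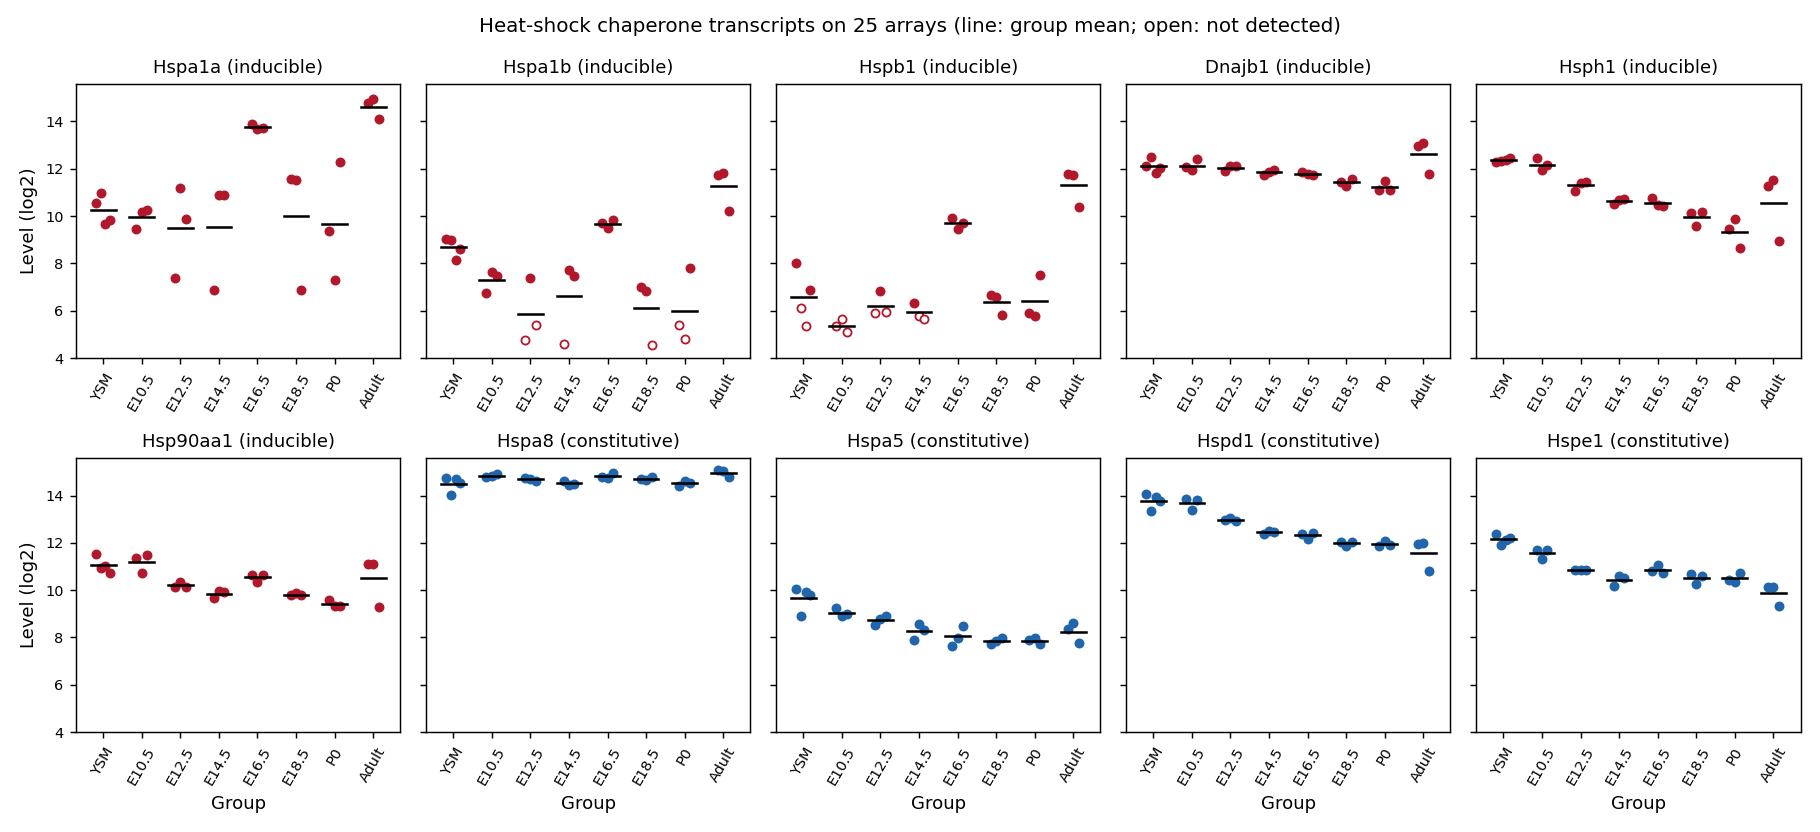
Level (log2, y axis) of each chaperone on each of 25 arrays by group (x axis), with a line at the group mean and open points where the probe was not detected (red, inducible; blue, constitutive). The E16.5 and adult arrays of Hspa1a, Hspa1b and Hspb1 lie above the arrays of the stages between and beside them, while Hspd1 runs from a mean of 13.78 in YSM to 11.58 in the adult.

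Hspa1a and Hspa1b encode the stress-inducible forms of HSP70, which uses ATP to hold and release unfolded stretches. Hspa1a was at 10.53, 10.98, 9.66 and 9.85 on the YSM arrays and at 9.47, 10.17 and 10.27 on the E10.5 arrays. It then spread widely, at 7.37, 11.21 and 9.89 at E12.5 and at 6.88, 10.90 and 10.90 at E14.5. One array of each of these stages was far below the others, and the ranges of the 4 groups overlapped.

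At E16.5 Hspa1a read 13.90, 13.70 and 13.71, above every array of the earlier stages. At E18.5 it read 11.57, 11.54 and 6.88, and at P0 9.38, 7.32 and 12.27. The 3 adult arrays read 14.79, 14.94 and 14.10, the highest values of the gene. In the order of its group means, E12.5, E14.5, P0, E10.5, E18.5 and YSM lay between 9.49 and 10.25 and could not be ordered beyond their spread, followed by E16.5 (13.77 ± 0.12, SD, n = 3) and the adult (14.61 ± 0.44, SD, n = 3).

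Hspa1b followed the same steps, and its levels correlated with those of Hspa1a at r = 0.90 over the 25 arrays, which share their stages. It was at 9.04, 8.97, 8.15 and 8.60 in YSM and at 6.74, 7.62 and 7.48 at E10.5. At E12.5 (4.77, 7.39 and 5.41), E14.5 (4.61, 7.73 and 7.48), E18.5 (6.98, 6.82 and 4.56) and P0 (5.38, 4.79 and 7.79) it was not detected on 6 of the 12 arrays. The E16.5 arrays read 9.70, 9.48 and 9.83, and the adult arrays 11.75, 11.80 and 10.22, and both groups lay above all other microglial arrays.

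Hspb1 encodes HSP27, a small heat-shock protein that holds unfolded proteins without ATP and binds actin. It was not detected on any E10.5 array (5.37, 5.64 and 5.09) and was detected on 1 of 3 arrays each at E12.5 (5.89, 6.82 and 5.94) and E14.5 (6.33, 5.79 and 5.67). At E16.5 it read 9.93, 9.44 and 9.71, at E18.5 6.68, 6.58 and 5.80, at P0 5.91, 5.76 and 7.53, and in the adult 11.77, 11.72 and 10.40. The E16.5 and adult arrays overlapped neither each other nor any other microglial group. The YSM arrays (8.01, 6.12, 5.37 and 6.87) spread over 2.65 and were detected on 2 of 4.

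Between E14.5 and E16.5, 3 members rose and none fell. Of all genes 32.9% passed in this step and 12.9% rose. The rise was 4.21 ± 1.26 (SE) for Hspa1a (adjusted p = 0.0149), 3.06 ± 0.84 for Hspa1b (adjusted p = 0.00966) and 3.76 ± 0.54 for Hspb1 (adjusted p = 0.000122), with Hspa1b detected on 2 of 3 and Hspb1 on 1 of 3 E14.5 arrays. By the test of the study's methods (analysis of variance with Tukey), Hspb1 alone of the members passed in this step, with adjusted p = 0.37 for Hspa1a and 0.267 for Hspa1b. The same step was 0.69 ± 0.32 for Hsp90aa1 (adjusted p = 0.109), 0.43 ± 0.19 for Hspe1 (adjusted p = 0.0919) and 0.31 ± 0.14 for Hspa8 (adjusted p = 0.0956), which did not pass, and it lay between -0.21 and -0.06 for Dnajb1, Hsph1, Hspa5 and Hspd1. The median difference was 1.87 over the inducible and 0.09 over the constitutive members, beside -0.08 over all genes. Without E14.5 array 1, on which Hspa1a was 4.02 below the next array, the difference of Hspa1a was 2.87 (adjusted p = 0.0913) and that of Hspa1b 2.06 (adjusted p = 0.0622), so that both calls were lost, while Hspb1 rose by 3.96. Hspa8 passed in this step without YSM array 2 (0.31) and Hspe1 without adult array 3 (0.43). E14.5 array 1 also carried the neutrophil markers and the lowest mean of immediate early genes, whose part in the result was not tested.

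Between E16.5 and E18.5, 2 members fell and none rose, where 2.32% of all genes passed and 0.95% fell. Hspb1 fell by 3.34 ± 0.54 (adjusted p = 0.00209) and Hspa1b fell by 3.55 ± 0.84 (adjusted p = 0.0318). Neither passed by the methods' test (adjusted p = 0.146 and 0.986). Hspa1a differed by -3.77 ± 1.26 (adjusted p = 0.128), although all of its E18.5 arrays lay below all of its E16.5 arrays. The call of Hspa1b was lost when any E16.5 array or E18.5 array 2 or 3 was left out, with differences between -3.90 and -2.77, and that of Hspb1 held without each array in turn. For all 6 inducible members the arrays of the 2 stages did not overlap, as for 23.6% of all genes, with the E18.5 arrays lower each time.

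Between P0 and the adult all 6 inducible members and Hspa8 rose and Hspe1 fell. Of all genes 51.1% passed in this step, 24.2% rose and 26.9% fell. The rise was 4.95 ± 1.26 for Hspa1a (31.0-fold, adjusted p = 0.00267), 5.27 ± 0.84 for Hspa1b (adjusted p = 3.15e-05, detected on 1 of 3 P0 arrays) and 4.90 ± 0.54 for Hspb1 (29.8-fold, adjusted p = 2.65e-07). The other 3 rose by less, Dnajb1 by 1.39 ± 0.24 (2.62-fold, adjusted p = 7.63e-05), Hsph1 by 1.25 ± 0.43 (adjusted p = 0.0196) and Hsp90aa1 by 1.07 ± 0.32 (adjusted p = 0.0094). Of the constitutive members, Hspa8 rose by 0.44 ± 0.14 (adjusted p = 0.0121), Hspe1 fell by 0.63 ± 0.19 (adjusted p = 0.0103), and Hspa5 (0.38 ± 0.27) and Hspd1 (-0.37 ± 0.23) did not pass. The call of Hspa8 was lost without adult array 1 (0.38), and that of Hspe1 without P0 array 3 (-0.52) or adult array 3 (-0.36). That of Hspe1 was also lost with scaling to the 75th percentile (-0.45, adjusted p = 0.116). With a block for the labels' replicate numbers it was lost too (-0.37, adjusted p = 0.0668). By the methods' test 3 members passed (Hspa1b, Hspb1 and Dnajb1), and Hspa1a did not (adjusted p = 0.0996). Neural markers moved in the same step, with 6 of 7 lower in the adult, and their part in the chaperone values was not tested. The median difference was 3.14 over the inducible and 0.01 over the constitutive members, beside -0.03 over all genes.

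**Figure D2:**
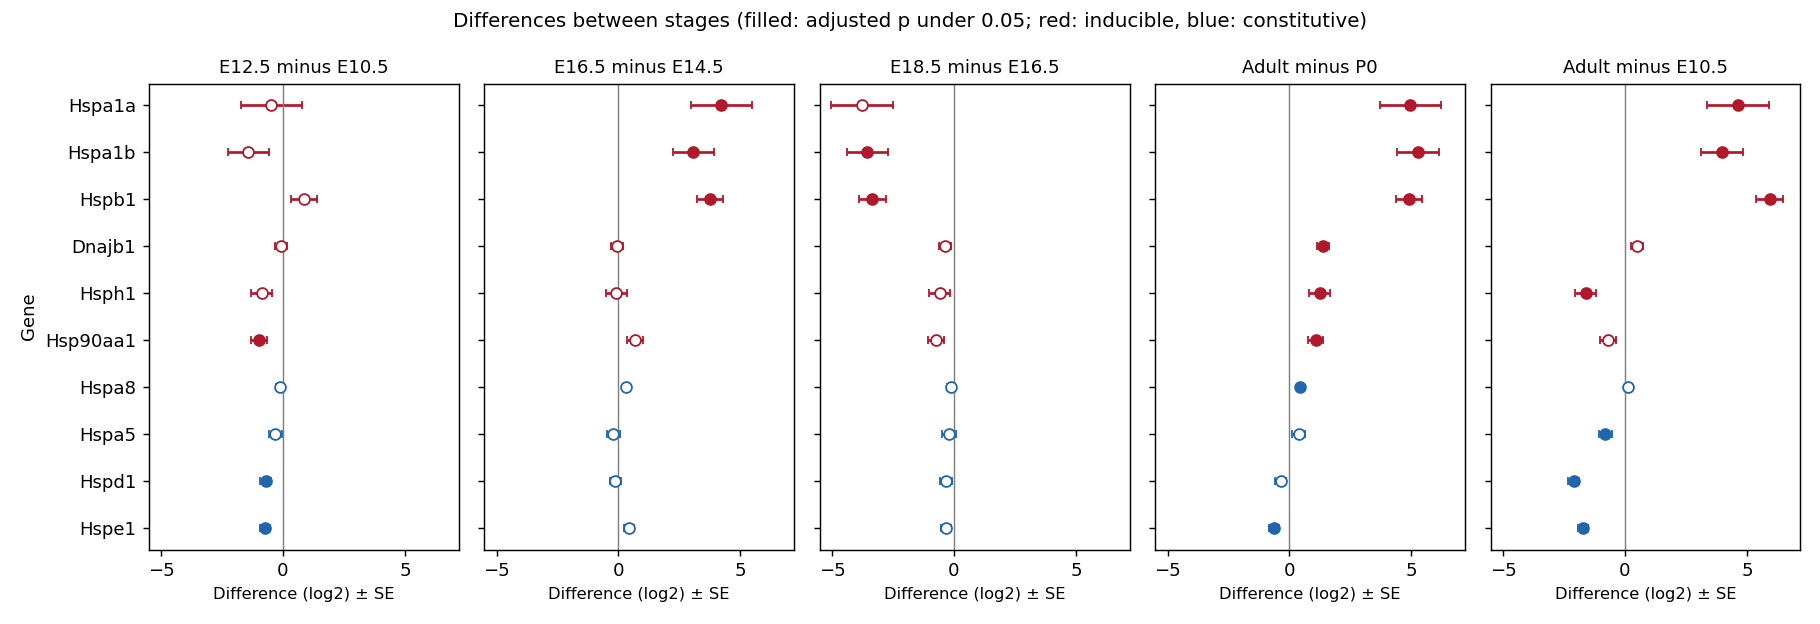
Difference between stages (log2, x axis, with the SE of the model) for each chaperone (y axis) in 5 comparisons, filled where adjusted p was under 0.05 (red, inducible; blue, constitutive). Between E14.5 and E16.5 the filled points are Hspa1a (4.21), Hspa1b (3.06) and Hspb1 (3.76), and between E10.5 and the adult Hsph1 (-1.60) falls with Hspa5, Hspd1 and Hspe1.

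Within the adult group array 3 stood apart. Dnajb1, a J-domain protein that delivers clients to HSP70 and starts its ATP cycle, read 12.98 and 13.11 on adult arrays 1 and 2 but 11.79 on array 3. Hsph1, the HSP110 that exchanges the nucleotide of HSP70, read 11.26, 11.52 and 8.95, and Hsp90aa1, the inducible cytosolic HSP90, read 11.09, 11.09 and 9.30. On array 3 Hsph1 and Hsp90aa1 lay within or below the P0 arrays (9.45, 9.87 and 8.66 for Hsph1, and 9.59, 9.34 and 9.34 for Hsp90aa1), and all 10 members were lower on array 3 than on both other adult arrays. Without it the adult rose over P0 by 2.06 for Hsph1 and 1.68 for Hsp90aa1, while the calls of Hsph1 and Hsp90aa1 were lost without adult array 1 or 2 (differences of 0.77 to 0.90) and that of Hsph1 also without P0 array 3 (0.91).

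Against E16.5, the earlier stage at which the inducible trio was high, the adult was higher in Hspb1 by 1.60 ± 0.54 (adjusted p = 0.0168) and in Dnajb1 by 0.83 ± 0.24 (adjusted p = 0.00717), so that 2 members rose, where 51.1% of all genes passed and 24.8% rose. The call of Hspb1 was lost without E16.5 array 2 or adult array 1 or 2 (1.36 to 1.48), and that of Dnajb1 without adult array 2 (0.58). Hspa1a (0.84 ± 1.26) and Hspa1b (1.59 ± 0.84) did not pass. Hspa1b did pass with quantile normalization without background correction (1.48, adjusted p = 0.00791) and on the authors' normalized values (1.48, adjusted p = 0.00779). Hspd1 fell by 0.73 ± 0.23 (adjusted p = 0.0129) and Hspe1 fell by 0.99 ± 0.19 (adjusted p = 0.000249), against 26.2% of all genes that fell. Without adult array 3 the value of Hspd1 was -0.33 (adjusted p = 0.115), and those of Hsph1 (0.84) and Hsp90aa1 (0.56) passed as higher in the adult. The call of Hspd1 was also lost with scaling to the 75th percentile (-0.48, adjusted p = 0.17). With a block for the labels' replicate numbers Hspd1 did not pass (-0.38, adjusted p = 0.0599), at a value near that without adult array 3. By the methods' test Hspe1 alone of the members passed.

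Dnajb1, Hsph1 and Hsp90aa1 did not pass from E14.5 to E16.5. Dnajb1 moved little before birth, from a mean of 12.12 ± 0.27 (SD, n = 4) in YSM to 11.80 ± 0.07 (SD, n = 3) at E16.5 and 11.24 ± 0.22 at P0. Hsph1 declined from 12.30, 12.34, 12.37 and 12.46 in YSM and 12.45, 11.93 and 12.15 at E10.5 to 11.05, 11.39 and 11.45 at E12.5 and 10.52, 10.68 and 10.71 at E14.5. Between E10.5 and E12.5 the arrays did not overlap in Hsph1, as in 51.3% of all genes. Neither this step nor that to E14.5 passed in the main fit (-0.88 ± 0.43 and -0.66 ± 0.43). The step to E12.5 did pass without adult array 3 (-0.88) and with scaling to the 75th percentile (-1.24, adjusted p = 0.0393). It also passed on the series matrix values with a block for the labels' replicate numbers (-0.85 ± 0.21, adjusted p = 0.00459). The SE there was near the 0.23 of the fit without adult array 3, so these are not separate checks. In the comparison that spans the series, the adult was lower than E10.5 by 1.60 ± 0.43 (adjusted p = 0.00245).

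Hsp90aa1 read 11.51, 10.94, 11.03 and 10.74 in YSM and 11.38, 10.72 and 11.50 at E10.5. It fell by 0.99 ± 0.32 to E12.5 (adjusted p = 0.0253), where its arrays read 10.14, 10.34 and 10.14. It then read 9.67, 9.98 and 9.91 at E14.5, 10.64, 10.34 and 10.63 at E16.5 and 9.78, 9.89 and 9.78 at E18.5. The E16.5 mean was above those of both neighbouring stages, by 0.69 and 0.72, and neither difference passed (adjusted p = 0.109 and 0.294). Both differences passed once adult array 3 was left out of the model (adjusted p = 0.00747 and 0.0418).

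Hspd1 and Hspe1 encode the HSP60 and HSP10 of the mitochondrial folding chamber and correlated with each other at r = 0.92 over the 25 arrays. Hspd1 read 14.08, 13.34, 13.93 and 13.77 in YSM, 13.87, 13.38 and 13.82 at E10.5, 12.95, 13.06 and 12.94 at E12.5 and 12.37, 12.52 and 12.44 at E14.5. Hspe1 read 12.39, 11.90, 12.12 and 12.20 in YSM, 11.71, 11.33 and 11.70 at E10.5, 10.83, 10.84 and 10.84 at E12.5 and 10.17, 10.59 and 10.51 at E14.5. In both, each microglial stage up to E14.5 lay below the one before without overlap. Between E10.5 and E12.5 the groups did not overlap in 51.3% of all genes.

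Between E10.5 and E12.5, 3 members fell (Hsp90aa1, Hspd1 and Hspe1) and none rose, where 30.7% of all genes passed and 16.2% fell. Hspd1 fell by 0.71 ± 0.23 (adjusted p = 0.0262) and Hspe1 fell by 0.74 ± 0.19 (adjusted p = 0.00643). The calls of Hspd1 and Hsp90aa1 were lost without E10.5 array 1 or 3 or E12.5 array 1 or 3, with differences of -0.69 to -0.62 for Hspd1 and -0.96 to -0.84 for Hsp90aa1. By the methods' test no member passed in this step (adjusted p = 0.146 for Hspe1). Of 16 measured genes of the cell cycle 10 fell in the same step, a list whose part in the chaperone values was not tested. Neighbouring groups did not overlap in 7 of 10 members at this step, as in 51.3% of all genes.

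From E10.5 to the adult, 3 members rose and 4 fell, where 66.3% of all genes passed, 30.6% rose and 35.6% fell. Hspb1 rose by 5.93 ± 0.54 (adjusted p = 4.82e-09), which is at least 30.8-fold because no E10.5 array was above background. Hspa1a rose by 4.64 ± 1.26 (24.9-fold, adjusted p = 0.00279) and Hspa1b by 3.98 ± 0.84 (15.8-fold, adjusted p = 0.000304). Hspd1 fell by 2.10 ± 0.23 (adjusted p = 9.34e-08), Hspe1 fell by 1.71 ± 0.19 (adjusted p = 1.22e-07), Hsph1 fell by 1.60 ± 0.43 and Hspa5 fell by 0.80 ± 0.27 (adjusted p = 0.0126). Without adult array 3 the call of Hspa5 was lost (-0.56, adjusted p = 0.0905) and Dnajb1 passed (0.91). Hsph1 still passed in that fit but at -0.79, the smallest fall over all arrays left out in turn. Hsp90aa1 passed as lower in the adult without E10.5 array 2 (-0.94) or without adult array 1 or 2, but was -0.11 without adult array 3. With a block for the labels' replicate numbers Hspa5 did not pass (-0.48, adjusted p = 0.0717) and Dnajb1 did (0.91), each near its value without adult array 3. The adult arrays of Hspd1 (10.80 on array 3 and 11.95 or more on arrays 1 and 2) and Hspe1 (10.14, 10.13 and 9.33) lay below all E10.5 arrays. By the methods' test 4 members passed (Hspa1b, Hspb1, Hspd1 and Hspe1), and Hspa1a (adjusted p = 0.0964), Hsph1 and Hspa5 did not. All 16 measured genes of the cell cycle fell between these stages, with a median difference of -4.63, and their part in the lower chaperone values was not tested.

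Hspa5 encodes BiP, the HSP70 of the ER lumen. It read 10.04, 8.89, 9.94 and 9.79 in YSM, 9.23, 8.92 and 8.99 at E10.5 and 8.51, 8.76 and 8.90 at E12.5. From E14.5 on its group means lay between 7.84 and 8.26 and were not separable beyond their spread. No neighbouring step passed for Hspa5, and its adult arrays (8.34, 8.63 and 7.76) overlapped those of P0 (7.90, 7.98 and 7.72).

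Hspa8 encodes HSC70, the HSP70 of unstressed cytosol. Its arrays lay between 14.03 and 15.08 in all groups, and outside YSM between 14.42 and 15.08. The group means were ordered YSM (the lowest), E14.5 (14.52), P0 (14.53), E12.5 (14.69), E18.5 (14.70), E16.5 and E10.5 (both 14.83) and adult (14.97), and the rise from P0 to the adult was the only neighbouring step that passed.

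In brain microglia against YSM at E10.5, 1 member fell and none rose, where 19.6% of all genes passed and 9.51% fell. Hspe1 fell by 0.57 ± 0.18 (adjusted p = 0.0313), a call that was lost without any E10.5 array or YSM array 1 or 4 and by the methods' test (adjusted p = 0.542). Hspb1 differed by -1.23 ± 0.50 (adjusted p = 0.0922), Hspa1b by -1.41 ± 0.79 (adjusted p = 0.223) and Hspa5 by -0.62 ± 0.25 (adjusted p = 0.0879). Hspb1 passed without YSM array 3 (-1.64), Hspa5 without YSM array 2 (-0.88) and Hspa8 without YSM array 1 or 3 (0.41 and 0.39). Background signal was 64.0 to 74.2 on YSM arrays and 113 to 158 on all others, so tissue and array processing cannot be told apart in this comparison.

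No member passed between E12.5 and E14.5 or between E18.5 and P0, where 1.38% and 0.0564% of all genes passed, and the methods' test passed 0 members in both. At an unadjusted p under 0.05 there were 2 members in the first step and 0 in the second. These 2 were Hspd1 (-0.54, 95% confidence interval -1.02 to -0.05, adjusted p = 0.27) and Hspe1 (-0.41, interval -0.82 to -0.01, adjusted p = 0.309). Their intervals leave out 0 because the 2 were picked by that unadjusted p. For Hspa1a the intervals ran from -2.55 to 2.69 and from -2.96 to 2.28, so that changes of several fold are not excluded in either step.

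To set the classes side by side on each array, every member was centred on its mean over the 25 arrays and averaged within its class, as a description with no test. The inducible score was 1.03 to 1.30 on the E16.5 arrays and 0.96 to 2.53 on the adult arrays, and at most 0.75 on all others. The constitutive score was 0.36 to 1.13 in YSM, 0.43 to 0.71 at E10.5, 0.07 to 0.16 at E12.5 and below 0 on every array from E14.5 on. The inducible score exceeded the constitutive score by 1.22 to 1.59 on the E16.5 arrays and by 1.97 to 2.76 on the adult arrays, and on other arrays by at most 0.12.

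The classes did not hold for every member. Hsph1 correlated at r = 0.89 with the constitutive score and at r = 0.09 with the inducible score of the other members, and Hsp90aa1 at 0.79 and 0.48. Hspa8 correlated at -0.12 with the constitutive score of the others and at 0.47 with the inducible score. Hspa1a (0.77), Hspa1b (0.95), Hspb1 (0.71) and Dnajb1 (0.63) followed the inducible score of the others more closely than the constitutive one. The score set against Hspa1a held Hspa1b and the reverse. The pair correlated at 0.90 and may share signal, so their values are not separate. These values describe 25 arrays that share their stages.

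The lowest inducible scores were those of P0 array 2 (-1.74), E18.5 array 3 (-1.71), E14.5 array 1 (-1.54), P0 array 1 (-1.36) and E12.5 array 1 (-1.32). The mean level of 16 measured immediate early genes, which cell handling can raise, was lowest within its stage on 3 of these arrays, at 9.85 on E14.5 array 1 (11.11 and 11.19 on the others), 10.63 on E18.5 array 3 (11.46 and 11.59) and 10.96 on E12.5 array 1 (11.39 and 11.78). It was also lowest on adult array 3, at 10.60 against 12.33 and 12.41. At P0 the order was turned, with means of 11.85, 11.47 and 11.37 on arrays 1 to 3 and the highest inducible score on array 3 (-0.39).

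Between stages, 8 of the 16 immediate early genes rose from E14.5 to E16.5 and none fell, with a median difference of 1.16 over the list, where 12.9% of all genes rose. Atf3 (3.76 ± 1.02), Junb (2.72 ± 0.53) and Klf4 (2.64 ± 0.63), all transcription factors, were the 3 with the largest change. From P0 to the adult 3 rose and none fell, with a median of 0.14, where 24.2% of all genes rose, and from E16.5 to E18.5 none passed, with a median of -0.82. The part of cell handling in the chaperone values was not tested.

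**Figure D3:**
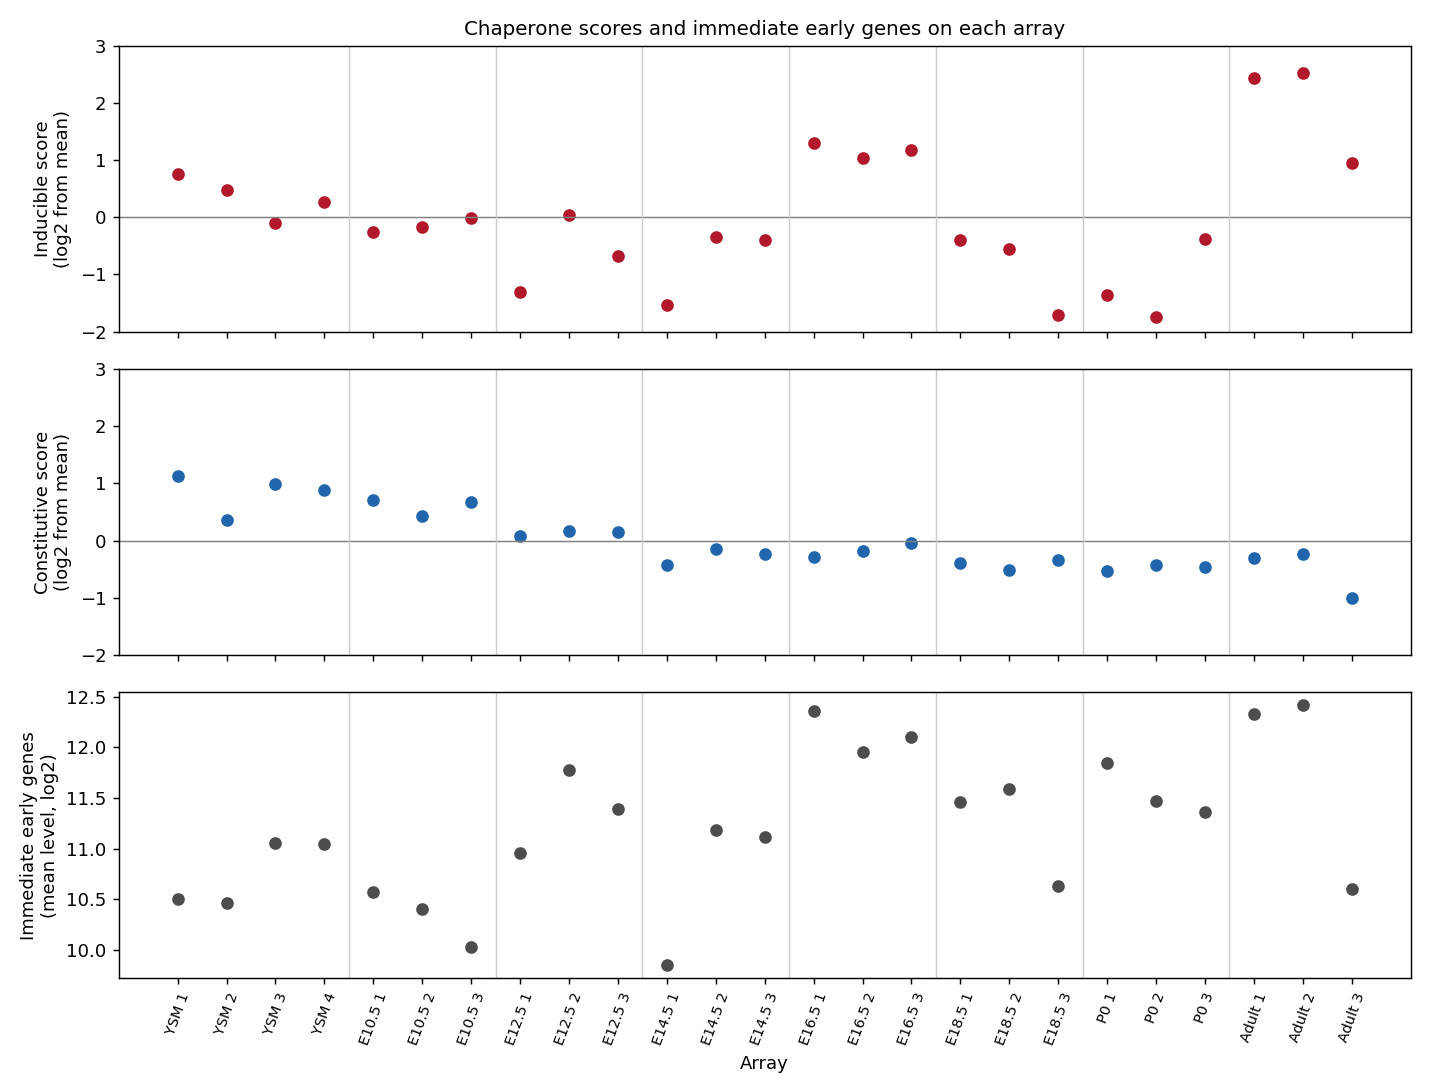
Inducible score, constitutive score (log2 difference from each member's mean over 25 arrays) and mean level of 16 immediate early genes (log2) on each array, with grey lines between groups. The E16.5 arrays (1.03 to 1.30) and adult arrays (0.96 to 2.53) have the highest inducible scores, and E14.5 array 1, E18.5 array 3 and adult array 3 are low within their stage in both the inducible score and the immediate early genes.

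The genes whose levels were most like the inducible score over the 25 arrays, among all genes tested, were Ciart (r = 0.90), Cpeb2 (0.89), Atf4 (0.87), Gadd45g (0.86), Ppp2r1b (0.86), Errfi1 (0.83), Ankrd10 (0.83) and Dapp1 (0.83). Ciart, which encodes a repressor of the circadian clock, averaged 7.14 at E14.5, 9.51 at E16.5, 7.09 at E18.5 and 9.34 in the adult. Gadd45g, a gene raised by DNA damage and other stress, averaged 10.94, 12.99, 10.92 and 13.97 at the same stages, and Atf4, a transcription factor of the integrated stress response, 11.47, 12.41, 11.64 and 12.94. Most like the constitutive score were Pin4 (0.95), Rcc1l (0.95), Hspa4 (0.95), Dis3 (0.95) and Emg1 (0.95). Hspa4, another HSP110, averaged 10.34 in YSM and 7.93 in the adult.

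Other genes of the folding machinery were counted from lists written for this set. Of 5 listed heat-shock factors and regulators 3 were measured (Hsf2, Hsbp1 and Hdac6), and the gene of HSF1 was not among these 3. None of the 3 passed from E14.5 to E16.5, when the inducible trio rose. In that step 32.9% of all genes passed and 12.9% rose. Of 16 other measured targets of HSF1, 1 rose and 2 fell in that step (Stip1, a co-chaperone that joins HSP70 to HSP90, rose by 0.69 ± 0.18), with a median difference of -0.15. From P0 to the adult 4 of them rose and 4 fell, where 24.2% of all genes rose and 26.9% fell. Among them Dnajb4, a J-domain protein detected on 1 of 3 P0 arrays, rose by 1.58 ± 0.33, and Stip1 fell by 1.35 ± 0.18.

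HSP90 partners, the cytosolic chaperonin and mitochondrial folding genes were counted next, beside 35.6% of all genes that fell from E10.5 to the adult. In this comparison 9 of 11 measured HSP90 paralogues and co-chaperones fell, 11 of 13 subunits of the chaperonin TRiC and of prefoldin fell, and 8 of 13 mitochondrial folding genes fell, and none of these lists held a gene that rose. The median differences were -1.46, -1.55 and -0.75, beside -0.09 over all genes. Ptges3, the HSP90 co-chaperone p23, fell by 1.94 ± 0.22, the TRiC subunit Cct5 fell by 2.36 ± 0.23, and Grpel1, the exchange factor of mitochondrial HSP70, fell by 1.91 ± 0.11.

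Of 21 measured genes of ER folding and its stress response, 6 rose and 3 fell from E10.5 to the adult, with a median of 0.15, where 30.6% of all genes rose and 35.6% fell. Dnajb9, an ER J-domain protein that the stress response raises, rose by 1.74 ± 0.20 and Herpud1, of ER-associated degradation, rose by 1.28 ± 0.13, whereas Hyou1, the ER relative of HSP110, fell and was detected on all 3 E10.5 arrays but on no adult array. From E14.5 to E16.5, 4 rose and 4 fell, where 32.9% of all genes passed, and Atf4 (0.94 ± 0.23) and Ddit3 (0.82 ± 0.19) were among those that rose, while Hspa5 differed by -0.21 ± 0.27. The co-chaperones of HSP70 were also mixed from E10.5 to the adult, with 3 of 16 higher and 9 lower, and Dnajb2, a J-domain protein rich in neurons, rose by 2.88 ± 0.19.

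Probes of the same gene did not all run alike. Hspa1a rose from E14.5 to E16.5 on all 3 of its probes, by 4.21, 3.02 and 2.71, and from P0 to the adult by 4.95, 3.86 and 3.25. Both probes of Hspa1b rose in each of these steps (3.06 and 3.05, then 5.27 and 3.66). The fall from E16.5 to E18.5 passed on the probe in use and not on ILMN_2530672 (adjusted p = 0.121). Each of these probes was lower at E14.5, E18.5 and P0 than at E16.5.

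The choice of probe changed calls of constitutive members. Hspd1 differed by -0.09 between YSM and E10.5 on the probe in use but rose by 2.02 ± 0.26 (adjusted p = 5.12e-05) on ILMN_2639036, where the means were 8.84 in YSM and 10.86 at E10.5. From E10.5 to E12.5 Hspd1 was -0.15 ± 0.28 on ILMN_2639036 (adjusted p = 0.742), so that the fall of the probe in use did not pass there, and from P0 to the adult it fell by 1.04 ± 0.28 (adjusted p = 0.00506). Hspa8 rose by 2.52 ± 0.31 on ILMN_2918479 (adjusted p = 3.59e-05), from 9.65 in YSM to 12.17, against 0.33 ± 0.13 on the probe in use. On ILMN_2918479 Hspa8 was -0.27 ± 0.34 from P0 to the adult, and on its other kept probe, ILMN_1249586, 0.25 ± 0.23, so that the adult rise of Hspa8 did not pass on its other probes. The other kept probe of Hsp90aa1 (ILMN_2752883) passed in none of the 9 comparisons, and its difference between E10.5 and E12.5 was -1.18 ± 0.49 (adjusted p = 0.0819). One probe each of Hspb1 (ILMN_2515964) and Hsp90aa1 (ILMN_2662557) was not detected on any array.

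**Figure D4:**
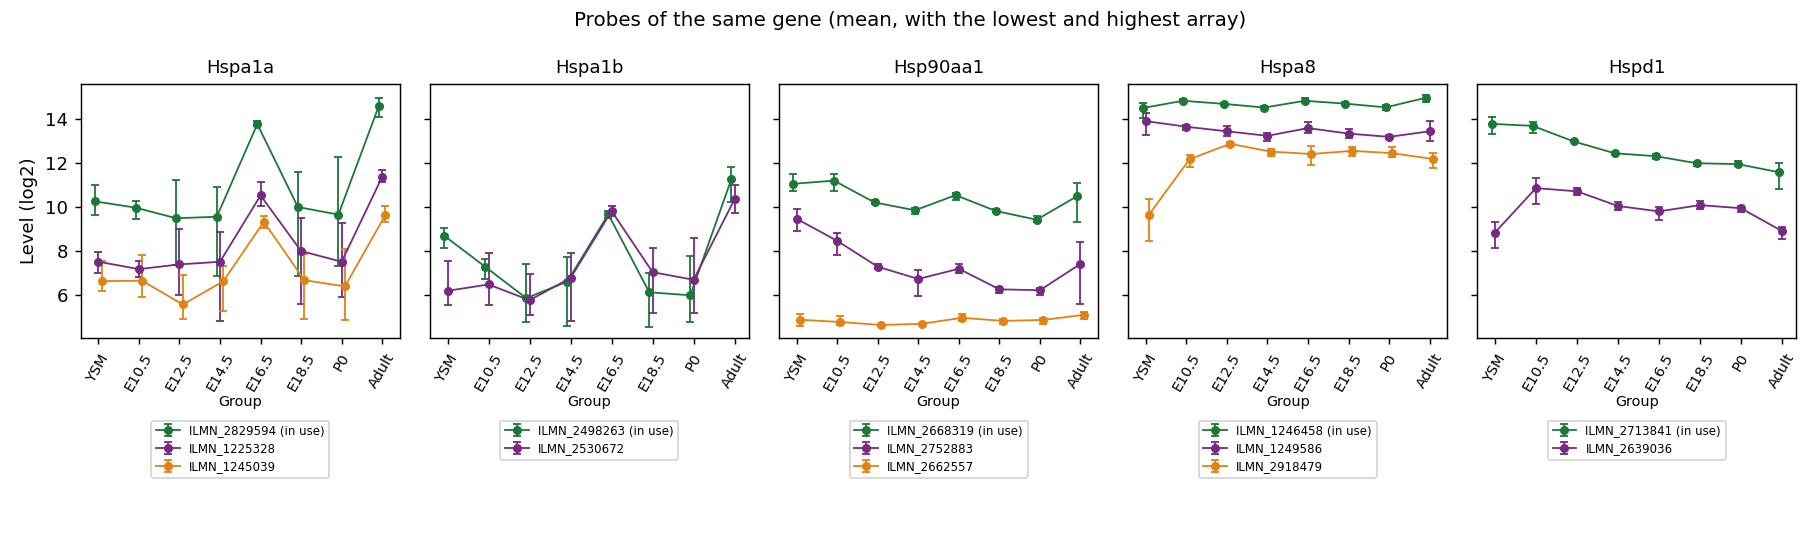
Mean level (log2, y axis) by group (x axis) of every probe of 5 chaperones with more than 1 kept probe, with bars from the lowest to the highest array of the group. The probes of Hspa1a and Hspa1b run in parallel with peaks at E16.5 and in the adult, while the other probe of Hspd1 (8.84 in YSM, 10.86 at E10.5) and a further probe of Hspa8 (9.65, 12.17) are low in YSM.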

How the data were processed

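Signals of Illumina Mouse WG-6 version 2 arrays were extracted by the authors with GenomeStudio and deposited as linear intensity values of 45281 probes in 28 columns, with detection p-values that the authors gave against negative controls. Intensity values that the authors quantile-normalized with lumi and the same 28 columns in the series matrix were used as alternatives. Neither tool's version was stated.

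Signals were background-corrected and quantile-normalized with neqc (offset 16, background from the detection p-values), taken as log2, and kept where the detection p was under 0.01 on at least 3 arrays. This gave 19789 probes, 16741 of them with 1 symbol, and each of 10630 genes was represented by its brightest probe on average. All 25 distinct arrays were fitted together, with a mean for each group (limma 3.58.1, R 4.3.3, 17 residual degrees of freedom), with 9 comparisons and a moderated F test, each adjusted by Benjamini-Hochberg over all genes. Precision is limited by how many arrays there are, and p-values measure the spread between pools of cells. The fit was tested on simulated data.

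All members were described. Of each other list, up to 3 called genes with the largest change in a comparison were open to naming, as were the 8 genes most like the inducible score and the 5 most like the constitutive score. The members and lists were chosen with earlier results of these data known. Symbols came from GEO's annotation of the probes.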

Additional observations from a re-analysis of the deposited data

How the results depend on the processing

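Scaling to the 75th percentile moved the median of all genes by over 0.1 in several comparisons (-0.18 from E10.5 to E12.5, -0.29 from E14.5 to E16.5, -0.38 from E10.5 to the adult, 0.11 from P0 and 0.13 from E16.5 to the adult). Under it 5 members passed from E10.5 to E12.5, 80 genes from E12.5 to E14.5 and 154 genes from E16.5 to E18.5, Hspa8 was -0.48 from E10.5 to the adult, and the constitutive score was -0.17 from E14.5 to E16.5. With no detection filter 1 member and 156 genes passed from E16.5 to E18.5. With the mean of all kept probes 3 members passed from YSM to E10.5, where Hspd1 was 0.96, and 1 from E16.5 to E18.5, and Hspd1 was -0.43 from E10.5 to E12.5 (adjusted p = 0.174) and -0.70 from P0 to the adult (adjusted p = 0.0159). On single probes Hspd1 was 2.02 from YSM to E10.5 and Hspa8 -0.27 from P0 to the adult. The methods' test (analysis of variance with Tukey) passed 0 members and 342 genes from YSM to E10.5 (limma 1 and 2079), 0 and 1236 to E12.5, 15 genes to E14.5, 1 and 931 to E16.5, 0 and 3 to E18.5, 1 gene to P0, 3 and 3098 from P0 to the adult, 4 members from E10.5 to the adult, and 1 and 3353 from E16.5 to the adult. Leaving out the 2 arrays with neutrophil markers, an alternative chosen after seeing the data, passed 1 member from E10.5 to E12.5, 28 genes from E12.5 to E14.5 and 1 member (Hspb1) from E14.5 to E16.5. The cause was not tested for any of these.

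The labels' replicate numbers did not pair the samples (r = -0.63 to 0.47 over 77 same-numbered pairs of arrays, median -0.01). With the replicate block on the series matrix values 340 genes passed from E12.5 to E14.5 (213 without it) and 5 members from E14.5 to E16.5, and Hsp90aa1 passed from E14.5 to E16.5 (0.63), to E18.5 (-0.66) and from E16.5 to the adult (0.48), as did Hspa1b in the last (2.07). Apart from that of Hspa1b, each member call that the block changed also changed alike without adult array 3. The block is therefore not a check separate from leaving out that array.

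Leaving out each array in turn, the count of members was 0 to 3 from YSM to E10.5, 1 to 4 to E12.5, 0 to E14.5, 1 to 5 to E16.5, 1 to 3 to E18.5, 0 to P0, 5 to 8 from P0, 7 to 8 from E10.5 and 2 to 5 from E16.5 to the adult, and 9 to 10 by the F test. The count of genes was 1241 to 2394, 2297 to 3604, 51 to 235, 2361 to 3838, 74 to 321, 1 to 24, 4764 to 5612, 6623 to 7178 and 4811 to 5629 in the same order. Hsp90aa1 from E16.5 to the adult was -0.34 to 0.56, the highest value without adult array 3. From E14.5 to E16.5 the inducible score rose by 1.54 to 2.14 and the constitutive by 0.02 to 0.16, and from P0 to the adult by 2.85 to 3.65 and by -0.19 to 0.20.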
